A study of Mus musculus with 8 samples.

Results

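The genes described here encode the bulk histones: the H1 linker histones and the H2A, H2B, H3 and H4 core histones. They were taken as the rows of the deposited gene table whose symbol starts with H1f, H2ac, H2bc, H3c, H4c or Hist followed by a digit, with at least 10 raw counts in at least 4 of the 8 libraries. The table held 22911 genes, of which 63 matched the name and 56 met the count: 8 H1, 13 H2A, 14 H2B, 10 H3 and 11 H4 genes. In all, 49 of the 56 had at least 10 counts in all 8 libraries, the other 7 in fewer, and 0 met the count through 1 group alone. Just inside the count, by the 4th highest of the 8 counts, were H1f6 (10), Hist1h4n (13), Hist1h2bp (15), H2ac14 (15) and H2ac7 (16), and just outside were Hist1h2br (9) and H3c15 (6), followed by Hist1h2al (4), Hist1h2ap (3), Hist1h2bq (3), H2ac1 (1) and Hist1h2ao (0).

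The libraries came from oral epithelial cells of adult C57BL/6 mice, 4 germ-free (raised without microbes) and 4 SPF (specific pathogen free, carrying a microbiota), with 1 library from each animal and no treatment before the tissue was taken. The mucosa was split with dispase II, the epithelial cells were sorted by flow cytometry, and total RNA was sequenced after removal of ribosomal RNA, without selection for a poly(A) tail. The libraries are called germ-free 1 to 4 and SPF 1, 3, 4 and 5 after their labels, and values listed for a group run in that order. The sex of the mice, the hour of collection and the gate of the sort are not stated in the labels.

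The libraries held 10260264 to 15524731 counts. All 8 keratinocyte markers were detected, with sums of 34701 to 43905 CPM (counts scaled to library size by TMM) in germ-free and 40407 to 50962 CPM in SPF libraries. Germ-free 3 stood apart in RNA of the underlying tissue: its 6 fibroblast markers summed to 535 CPM, against 53.8, 76.9 and 64.9 CPM in the other germ-free libraries and 31.3 to 57.4 CPM in SPF libraries. Its 4 endothelial markers summed to 74.2 CPM, with 8.36 to 20.3 CPM in the other germ-free and 2.55 to 6.64 CPM in SPF libraries, so all 4 germ-free sums lay above all SPF sums, and 1 of the 4 markers, Emcn, was called higher in germ-free mice by edgeR (adjusted p = 0.00469). The 4 muscle markers of germ-free 3 summed to 10.7 CPM, with 0.883 to 2.64 CPM in the other germ-free and 0.305 to 1.63 CPM in SPF libraries. The sums of the 5 immune markers in the table were 6.18 to 23.0 CPM in germ-free and 4.17 to 8.17 CPM in SPF libraries. Of these markers Lum, Pdgfra, Cdh5, Emcn, Cd3e and Cd79a, among others, were at 0 in at least 1 library. Counts of histone genes called are also given without germ-free 3, and the part of these other cells in the results is shown only by that count and by a fit with the fibroblast markers. In bulk RNA, fewer cells with histone mRNA and less of it per cell cannot be told apart.

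Histones package DNA: H2A, H2B, H3 and H4 form the nucleosome core, and H1 binds the linker DNA where it enters and leaves. Most bulk histone genes have no introns, lie in clusters and are transcribed in S phase, when replicating DNA needs new histones. Their mRNA ends in a conserved stem-loop in place of a poly(A) tail. SLBP, the stem-loop-binding protein, holds that structure through 3′ end cutting by the U7 snRNP, translation and decay at the end of S phase. In the stratified epithelium of the mouth, division takes place in the basal and adjoining layers, and the cells above leave the cycle and differentiate.

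Of the 56 genes, 48 lie on chromosome 13 and 6 on chromosome 3 of GRCm38. H1f0 (chromosome 15) and H1f10 (chromosome 6) stand alone; they encode linker variants made outside S phase too and from polyadenylated mRNA. H1f6 encodes the testis linker histone H1t, and H2ac14 is annotated as an unprocessed pseudogene. The name "canonical cluster" therefore fits most but not all of the genes the rule chose.

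The 3′ stem-loop is the sequence that sets these mRNAs apart, so 1 example of each form found is shown. The motif GGNNCTTNTNAGNGCC was searched on the sense strand of GENCODE M21 transcripts (GRCm38), and 34 of the 56 genes held it after the stop codon, beginning 21 to 46 bases (median 31) behind it. In the whole annotation 82 genes had it in a transcript. Written as DNA from the coding strand, with the 16 bases of stem and loop in capitals and 5 flanking bases on each side, the forms were as follows.
H2ac4: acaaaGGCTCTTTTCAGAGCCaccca
H2bc12: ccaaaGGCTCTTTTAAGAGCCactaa
H2ac20: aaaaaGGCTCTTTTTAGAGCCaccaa
H3c8: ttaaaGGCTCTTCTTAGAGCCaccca
H4c4: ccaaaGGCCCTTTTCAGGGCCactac
H4c14: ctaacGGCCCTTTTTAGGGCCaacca
H4c1: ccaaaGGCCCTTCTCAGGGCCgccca
The H2ac4 form was found in 18 genes of the H1, H2A, H2B and H3 classes and the H2bc12 form in 6. The H4c4 form was found in 5 genes, all of them H4, and the H4c14 form in H4c14 and H4c9. H2ac20, H3c8 and H4c1 each had a form of their own. For 13 genes the annotated transcript ends within 5 bases of the stop codon, so the place where the stem-loop would lie is outside it.

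Promoters are shown for 4 genes of different classes whose RNA was lower in germ-free mice. RefSeq (GRCm38.p6) gave promoters, from 250 bases before to 50 bases after the start, for 49 of the 56 genes (50 windows). Capitals mark 4 motifs searched on both strands: TATAAA, the TATA box; CCAAT; ATTTGCAT, the octamer; and AAACACA, known from H1 promoters.
H1f5 (chr13:21780576-21780875, minus strand): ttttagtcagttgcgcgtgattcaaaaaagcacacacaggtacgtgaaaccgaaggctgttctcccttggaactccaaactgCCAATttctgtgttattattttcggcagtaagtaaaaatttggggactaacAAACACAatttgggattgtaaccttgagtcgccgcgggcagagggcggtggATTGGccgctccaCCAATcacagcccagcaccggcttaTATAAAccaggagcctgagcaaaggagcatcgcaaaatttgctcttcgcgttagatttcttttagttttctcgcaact
H2ac4 (chr13:23750838-23751137, plus strand): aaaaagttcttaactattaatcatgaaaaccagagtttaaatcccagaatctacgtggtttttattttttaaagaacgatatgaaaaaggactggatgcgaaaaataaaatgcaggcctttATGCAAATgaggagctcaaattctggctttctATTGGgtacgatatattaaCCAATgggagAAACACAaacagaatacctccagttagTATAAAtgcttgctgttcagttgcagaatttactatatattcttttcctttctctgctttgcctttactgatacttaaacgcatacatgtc
H3c2 (chr13:23752095-23752394, plus strand): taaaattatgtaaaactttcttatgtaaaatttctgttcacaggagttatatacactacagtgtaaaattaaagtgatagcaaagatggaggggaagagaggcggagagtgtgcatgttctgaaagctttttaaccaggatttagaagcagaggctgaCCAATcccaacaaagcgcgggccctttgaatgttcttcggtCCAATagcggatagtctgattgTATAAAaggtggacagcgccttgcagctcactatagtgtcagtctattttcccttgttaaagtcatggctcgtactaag
H4c12 (chr13:21750504-21750803, minus strand): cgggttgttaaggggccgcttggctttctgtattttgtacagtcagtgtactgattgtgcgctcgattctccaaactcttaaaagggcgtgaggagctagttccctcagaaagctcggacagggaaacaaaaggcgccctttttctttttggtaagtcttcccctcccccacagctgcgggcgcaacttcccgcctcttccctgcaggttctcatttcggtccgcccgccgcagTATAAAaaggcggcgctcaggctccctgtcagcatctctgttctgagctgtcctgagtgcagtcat
TATAAA was in 58.0% of the 50 windows and in 13.6% of all 32851 RefSeq windows of this length. CCAAT was in 82.0% of the windows, against 37.4% of all: in each of the 11 H2A, 13 H2B and 8 H3 windows but in only 3 of 10 H4 windows. The octamer was in 22.0%, against 1.74% of all, and only in H2A (5 of 11) and H2B (6 of 13) windows among the classes. AAACACA was in 14.0%, against 7.18% of all, and in 5 of the 8 H1 windows. Windows of neighbouring divergent genes overlap, so they are not independent.

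Histone RNA was lower in germ-free mice across all 5 classes. The 56 genes summed to 2422, 2131, 1558 and 1309 CPM in germ-free libraries, against 3547, 3233, 3780 and 2897 CPM in SPF libraries. The groups did not overlap: the highest germ-free library lay below the lowest SPF library. The means were 1855 ± 511 CPM in germ-free and 3364 ± 384 CPM in SPF mice (SD, n = 4 each), so germ-free mice had 55.1% of the SPF level, a log2 ratio of −0.86. Without germ-free 3 that log2 ratio was −0.78, and leaving out any other library kept it between −1.01 and −0.72. These genes took 0.186 ± 0.0482% of all counts in germ-free and 0.332 ± 0.0344% in SPF libraries.

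Gene by gene, 17 of the 56 were called lower in germ-free mice and 0 higher by edgeR's quasi-likelihood test (Benjamini-Hochberg adjusted p under 0.05 over 15098 genes). Of all genes tested 2.33% were called lower and 1.85% higher. An unadjusted p under 0.05 was found for 41 of the 56, all lower, against 9.53% of all genes. The log2 fold change was below 0 for 55 of 56, against 47.1% of all genes, with a median of −0.87, against 0.02 over all genes. In 26 genes all germ-free libraries lay below all SPF libraries (6.84% of all genes), and in 0 above (6.24%). The lowest of the 8 values came from a germ-free library in 54 genes, from germ-free 4 in 31 and germ-free 3 in 15. The highest came from an SPF library in 55, from SPF 4 in 37 and SPF 1 in 14. By the authors' deposited table, 29 of the 56 were lower in germ-free mice at an adjusted p under 0.05 and 0 higher, against 2.63% of all genes lower. DESeq2's Wald test called 33 lower (4.3% of all genes) and limma voom 35 (3.76%), with 0 higher by both.

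How many genes passed turned on single libraries, for the histone genes and over all genes. The count of histone genes was 7 without germ-free 3, 8 without germ-free 4 and 25 without germ-free 1. It was 6 without SPF 1, 6 without SPF 3 and 4 without SPF 4. Each time 0 were higher, while 54 or 55 genes stayed below 0. Of all genes 1.32% were called lower without germ-free 3, 0.982% without germ-free 4 and 2.58% without germ-free 1. That share was 2.12% without SPF 1, 0.998% without SPF 3 and 0.993% without SPF 4, against 2.33% with all 8 libraries. H1f1, H2ac15, H2bc6 and H3c2 were called whichever library was left out. With the log2 sum of the 6 fibroblast markers added to the edgeR model, only H2ac15 of the histone genes was called. Of all genes 0.258% were then called lower. In that fit 27 histone genes had an unadjusted p under 0.05. Their median log2 fold change over all 56 was −0.74 and the median SE 0.37, against 0.30 without that term.

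**Figure D1:**
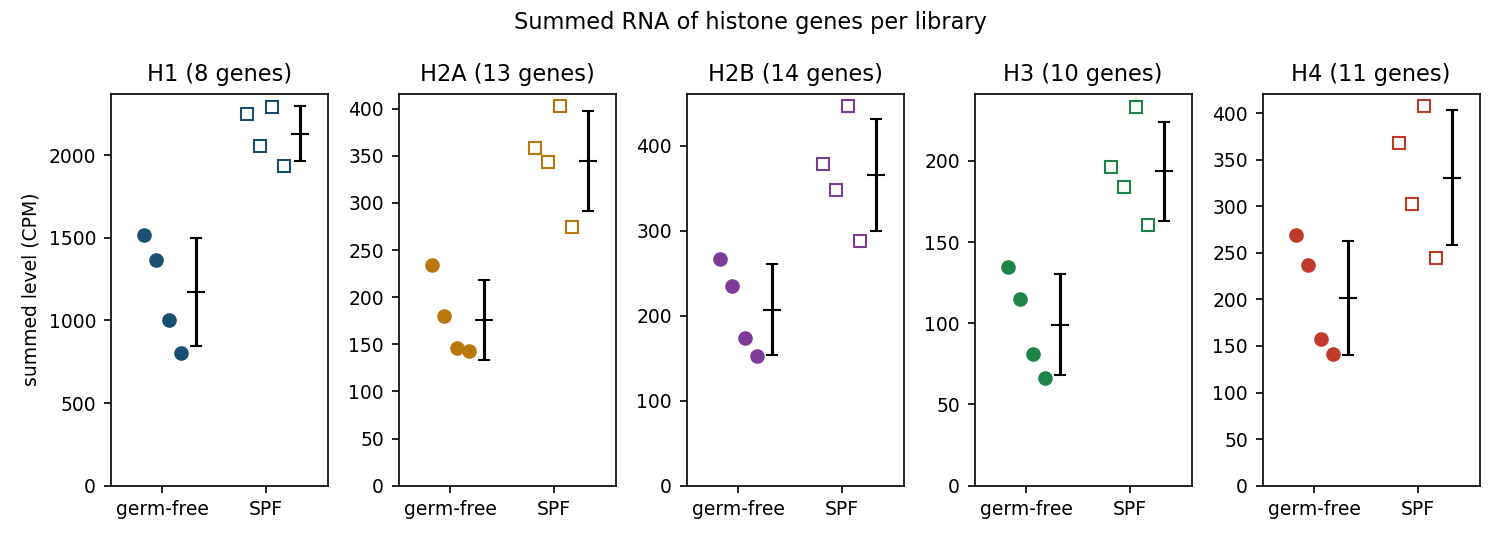
Summed level (CPM) of the genes of each histone class in each library, with the mean and SD beside the points (n = 4 libraries per group; filled circles germ-free, open squares SPF; each panel has its own axis from 0). The groups do not overlap for H1, H2A, H2B and H3; for H4 the highest germ-free library (268.6 CPM) lies above the lowest SPF library (244.0 CPM).

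Each class had a lower sum in germ-free mice. Germ-free mice had 55.0% of the SPF sum for H1, 51.0% for H2A, 56.7% for H2B, 51.2% for H3 and 60.8% for H4. The germ-free and SPF sums did not overlap in the first 4 classes, and those of H4 did. The share of each class in the counts of these genes was also compared. H1 genes took 63.1 ± 1.23% of the genes' counts in germ-free and 63.5 ± 2.48% in SPF libraries. H2A took 9.61 ± 1.03% and 10.2 ± 0.560%, H2B 11.2 ± 0.284% and 10.8 ± 0.780%, H3 5.30 ± 0.212% and 5.73 ± 0.299%, and H4 10.8 ± 0.461% and 9.74 ± 1.06%, in germ-free and SPF libraries in that order (SD, n = 4 each). These are shares of raw counts, not corrected for gene length or for sequence shared between copies, and H1 here includes H1f0 and H1f10. They compare the groups and do not give the make-up of histone RNA. Differences in these shares were not tested. Per kilobase of exon the highest levels over all 8 libraries were those of H1f2 (329 CPM per kb), H1f5 (194), H1f4 (189), H2ac10 (160.3), H1f0 (152) and H2ac20 (140.0). This ranking depends on annotated lengths, which are uneven. H1f3 is annotated with 7425 exonic bases and had 33.5 CPM per kb, while H1f5 and H2ac10 are annotated to within 5 bases of the stop codon.

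Among the linker histone genes 6 of 8 fell in germ-free mice, with a class median log2 fold change of −0.95. H1f2, which encodes the abundant somatic subtype H1.2 (ENSMUSG00000036181, chromosome 13, 23738808 to 23740367, plus strand), had 471, 442, 313 and 264 CPM in germ-free libraries, against 685, 620.3, 697 and 609 CPM in SPF libraries. All germ-free libraries lay below all SPF libraries (log2 fold change −0.81 ± 0.17, adjusted p = 0.0259 by edgeR; here and below ± is the SE of a log2 fold change). H1f5, the gene of H1.5 (ENSMUSG00000058773, chromosome 13, 21779883 to 21780625, minus strand), had 106, 105, 74.6 and 50.5 CPM in germ-free libraries, against 215, 183, 235 and 183 CPM in SPF libraries. The highest germ-free value was well under the lowest SPF value (−1.27 ± 0.23, adjusted p = 0.0262 by edgeR). H1f4, the gene of H1.4 (chromosome 13, 23620629 to 23622558, minus strand), had 354, 287, 218 and 171 CPM in germ-free libraries, against 497, 455, 503 and 428 CPM in SPF libraries, and fell by edgeR with no overlap (−0.87 ± 0.20, adjusted p = 0.0497). Its span overlaps that of H2bc6 on the same strand, so reads of the shared part cannot be told apart. The gene of H1.1, H1f1 (chromosome 13, 23763666 to 23764406, plus strand), had 39.6, 43.3, 32.9 and 27.3 CPM in germ-free libraries, against 83.3, 78.8, 97.7 and 54.5 CPM in SPF libraries. It fell with no overlap (−1.13 ± 0.19, adjusted p = 0.00791 by edgeR) and kept its call whichever library was left out. H1f3, the gene of H1.3, averaged 164 ± 62.7 CPM in germ-free and 334 ± 27.4 CPM in SPF libraries (SD, n = 4 each) and did not pass by edgeR (−1.03 ± 0.26, adjusted p = 0.0776), although its groups did not overlap; without germ-free 1 its adjusted p was 0.00760.

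The unclustered variants fell as well. H1f0, the gene of H1.0, known to accumulate in cells that stop dividing (ENSMUSG00000096210, chromosome 15, 79028450 to 79030504, plus strand), had 297, 295, 221 and 188 CPM in germ-free libraries, against 405, 382, 378 and 333 CPM in SPF libraries, with no overlap and the smallest called difference of the 56 genes (−0.58 ± 0.14, adjusted p = 0.0356 by edgeR). H1f10, the gene of H1.10 (chromosome 6, 87980421 to 87981637, minus strand), had 6.18, 7.98, 6.40 and 5.67 CPM in germ-free libraries, against 8.55, 18.3, 17.03 and 17.9 CPM in SPF libraries. SPF 1 lay just above the highest germ-free value and far below the other SPF libraries (−1.24 ± 0.25, adjusted p = 0.0148 by edgeR). H1f0 and H1f10 overlap long noncoding genes on the opposite strand. H1f6, the testis gene, was the only gene with a log2 fold change above 0 (0.51 ± 0.77, adjusted p = 0.769 by edgeR), at 0.781 ± 0.337 CPM in germ-free and 0.532 ± 0.479 CPM in SPF libraries. The call of H1f5 was lost without germ-free 3, SPF 1, SPF 3, SPF 4 or SPF 5 (adjusted p 0.0617 to 0.0748), that of H1f2 without germ-free 3, SPF 1, SPF 3, SPF 4 or SPF 5 (adjusted p 0.059 to 0.0755) and that of H1f4 without germ-free 2, germ-free 3, SPF 1, SPF 3, SPF 4 or SPF 5 (adjusted p 0.0961 to 0.12). H1f10 lost its call without germ-free 4, SPF 3, SPF 4 or SPF 5 (adjusted p 0.0507 to 0.0617) and H1f0 without germ-free 3, germ-free 4, SPF 1, SPF 3, SPF 4 or SPF 5 (adjusted p 0.0514 to 0.104).

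Of the H2A genes 5 of 13 fell, and all 13 had a log2 fold change below 0 (median −0.98). The smallest adjusted p of all 56 genes was that of H2ac15 (ENSMUSG00000063021, chromosome 13, 21753435 to 21753827, minus strand), which had 32.4, 26.3, 24.1 and 18.1 CPM in germ-free libraries, against 64.8, 56.1, 64.8 and 51.1 CPM in SPF libraries (−1.23 ± 0.16, adjusted p = 0.0011 by edgeR). The highest germ-free value lay far below the lowest SPF value. H2ac10 (chromosome 13, 23533906 to 23534304, plus strand), the highest H2A gene per kilobase, had 52.1, 47.4, 27.1 and 31.2 CPM in germ-free libraries, against 81.8, 99.4, 104 and 68.7 CPM in SPF libraries, again with no overlap (−1.17 ± 0.23, adjusted p = 0.0252 by edgeR). Only 6.00% of its 50-base words are found in no other annotated gene, so its counts are uncertain. H2ac4 (ENSMUSG00000061615, chromosome 13, 23751126 to 23751598, plus strand), whose promoter is shown above, had 4.63, 6.60, 2.11 and 3.62 CPM in germ-free libraries, against 15.3, 8.21, 14.3 and 10.3 CPM in SPF libraries. This was the largest difference of the 56 genes, from low levels (−1.497 ± 0.33, adjusted p = 0.023 by edgeR). H2ac13 had 3.90, 2.57, 2.81 and 4.18 CPM in germ-free libraries, against 10.9, 8.35, 8.93 and 4.37 CPM in SPF libraries (−1.27 ± 0.32, adjusted p = 0.0418 by edgeR); its highest germ-free and lowest SPF values were nearly level, and with 9.88% of its words unique its counts are uncertain too. On chromosome 3, H2ac20 (chromosome 3, 96220361 to 96220880, minus strand) had 72.7, 46.3, 49.6 and 50.2 CPM in germ-free libraries, against 104, 89.0, 99.3 and 70.9 CPM in SPF libraries, and germ-free 1 overlapped the lowest SPF library (−0.73 ± 0.16, adjusted p = 0.0242 by edgeR). The other 8 H2A genes had log2 fold changes of −1.15 to −0.30 and adjusted p-values of 0.0757 or more. The H2ac10 call was lost without germ-free 4, SPF 1, SPF 3 or SPF 4 (adjusted p 0.0534 to 0.0698), that of H2ac4 without germ-free 4, SPF 1 or SPF 4 (adjusted p 0.0511 to 0.0779), that of H2ac13 without germ-free 1, germ-free 2, germ-free 3, germ-free 4, SPF 1, SPF 3 or SPF 4 (adjusted p 0.0502 to 0.113) and that of H2ac20 without germ-free 2, germ-free 3, germ-free 4, SPF 1, SPF 3 or SPF 4 (adjusted p 0.0519 to 0.0847).

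Of the 14 H2B genes 3 fell, and all 14 had a log2 fold change below 0 (median −0.90). H2bc6 (ENSMUSG00000047246, chromosome 13, 23583670 to 23621124, minus strand) had 35.6, 29.8, 23.8 and 24.4 CPM in germ-free libraries, against 58.6, 49.4, 67.0 and 41.4 CPM in SPF libraries, with no overlap (−0.93 ± 0.17, adjusted p = 0.00829 by edgeR). Its span overlaps that of H1f4 on the same strand, which averaged 364 CPM over all libraries, against 41.3 CPM for H2bc6. Reads of the shared part cannot be told apart, so the counts of H2bc6 are uncertain. H2bc14 (chromosome 13, 21722044 to 21722567, plus strand) had 12.4, 7.92, 6.52 and 4.92 CPM in germ-free libraries, against 19.9, 21.2, 29.1 and 11.9 CPM in SPF libraries; germ-free 1 lay just above SPF 5 (−1.37 ± 0.31, adjusted p = 0.0324 by edgeR). H2bc18 on chromosome 3 had 22.9, 19.9, 18.3 and 22.6 CPM in germ-free libraries, against 38.7, 30.9, 40.5 and 26.5 CPM in SPF libraries, and all germ-free libraries were lower (−0.71 ± 0.15, adjusted p = 0.0208 by edgeR). None of its 50-base words is unique, and it overlaps annotated long noncoding genes on both strands, so its counts are uncertain. H2bc15, the highest H2B gene per kilobase, had 32.1, 33.5, 18.04 and 10.96 CPM in germ-free libraries, against 56.1, 51.7, 68.5 and 38.0 CPM in SPF libraries: the groups did not overlap, yet the germ-free spread was wide and it did not pass (−1.17 ± 0.36, adjusted p = 0.132 by edgeR). With 13.6% of its words unique, its counts are uncertain. H2bc7 had 37.4, 26.2, 16.95 and 11.1 CPM in germ-free libraries, against 47.1, 39.1, 56.7 and 36.4 CPM in SPF libraries, and germ-free 1 lay above SPF 5. It did not pass either (−0.96 ± 0.35, adjusted p = 0.192 by edgeR); without germ-free 1 its adjusted p was 0.0389. The call of H2bc14 was lost without germ-free 2, germ-free 3, germ-free 4, SPF 1, SPF 3 or SPF 4 (adjusted p 0.0607 to 0.0968) and that of H2bc18 without germ-free 3 or SPF 4 (adjusted p 0.0615 to 0.0729).

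At the other end were H2bc4 and H2bc21, named here after their values were seen. H2bc4 averaged 48.6 ± 6.77 CPM in germ-free and 59.0 ± 2.85 CPM in SPF libraries (−0.28 ± 0.11, adjusted p = 0.187 by edgeR), and its groups did not overlap despite the small difference. H2bc21, the gene of the H2B variant H2BE known from olfactory neurons of the mouse, averaged 3.57 ± 0.779 CPM in germ-free and 3.85 ± 1.54 CPM in SPF libraries (−0.10 ± 0.36, adjusted p = 0.913 by edgeR). The annotated transcript of H2bc4 is spliced and that of H2bc21 runs 2192 bases past the stop codon, and neither holds the stem-loop motif. Across the histone genes the median log2 fold change was −0.86 for the 34 with the motif (8 called) and −1.08 for the 22 without (9 called). The 22 include 13 whose annotation stops at the coding end, so that the motif could not be seen in them. These 13 had a median of −1.17 and 6 calls. The 8 annotated more than 5 bases past the stop codon and without the motif, H2bc4 and H2bc21 among them, had a median of −0.65 and 3 calls. Differences between these sets were not tested.

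Among the H3 genes 1 of 10 passed, although all 10 were below 0 with a median of −0.98. H3c2 (ENSMUSG00000069267, chromosome 13, 23752267 to 23752886, plus strand), the highest H3 gene per kilobase, had 27.7, 25.6, 19.5 and 15.4 CPM in germ-free libraries, against 47.0, 49.1, 54.7 and 39.8 CPM in SPF libraries. All germ-free libraries lay below all SPF libraries (−1.11 ± 0.17, adjusted p = 0.00413 by edgeR), and no single library decided the call. H3c4 had 24.6, 22.7, 12.3 and 11.98 CPM in germ-free libraries, against 34.6, 39.6, 42.1 and 26.4 CPM in SPF libraries, with no overlap but an adjusted p just past the threshold (−0.99 ± 0.26, adjusted p = 0.0606 by edgeR; 0.0277 without germ-free 1). H3c6 had 17.9, 22.5, 11.96 and 11.4 CPM in germ-free libraries, against 28.4, 21.5, 35.7 and 27.7 CPM in SPF libraries, and germ-free 2 lay above SPF 3 (−0.82 ± 0.23, adjusted p = 0.0609 by edgeR; 0.0205 without germ-free 2). The other 7 H3 genes had log2 fold changes of −1.35 to −0.58 and adjusted p-values of 0.0543 or more.

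The H4 genes had the smallest median, −0.50, with 2 of 11 called lower. H4c4 (ENSMUSG00000061482, chromosome 13, 23581598 to 23582735, plus strand), the highest H4 gene per kilobase, had 117, 92.7, 69.7 and 73.6 CPM in germ-free libraries, against 164, 148, 199 and 125 CPM in SPF libraries, with no overlap (−0.85 ± 0.19, adjusted p = 0.0432 by edgeR). H4c12 (chromosome 13, 21750194 to 21750505, minus strand) had 10.002, 9.44, 5.44 and 5.57 CPM in germ-free libraries, against 15.7, 15.8, 20.6 and 11.4 CPM in SPF libraries, also with no overlap (−1.06 ± 0.26, adjusted p = 0.0332 by edgeR). H4c8 had 37.8, 32.7, 17.1 and 13.3 CPM in germ-free libraries, against 48.5, 35.4, 46.4 and 27.1 CPM in SPF libraries, and here germ-free 1 and 2 lay above SPF 5 (−0.63 ± 0.36, adjusted p = 0.385 by edgeR). The other 8 had log2 fold changes of −0.82 to −0.34 and adjusted p-values of 0.119 or more. Whether the H4 median differs from those of the other classes was not tested. The H4c4 call was lost without germ-free 2, germ-free 3, germ-free 4, SPF 1, SPF 3 or SPF 4 (adjusted p 0.0771 to 0.111) and that of H4c12 without germ-free 3, germ-free 4, SPF 1, SPF 3 or SPF 4 (adjusted p 0.0531 to 0.113).

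**Figure D2:**
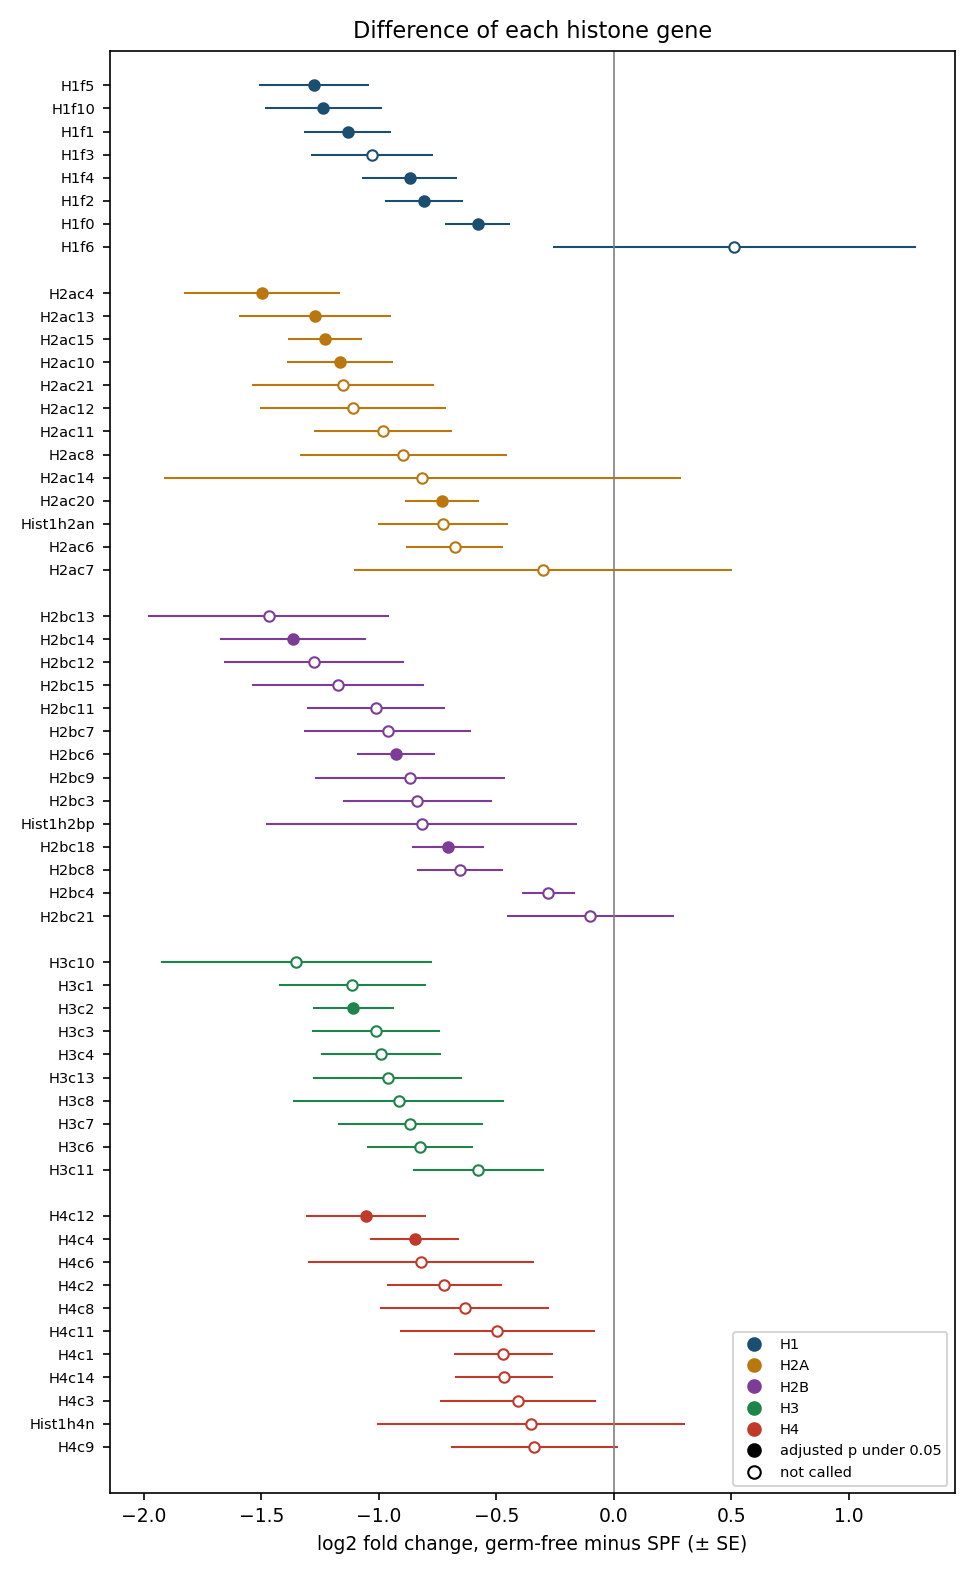
Log2 fold change (germ-free minus SPF, edgeR, bars ± SE; 4 libraries per group) of each of the 56 genes, grouped and coloured by class from H1 at the top to H4 at the bottom, with filled points for an adjusted p under 0.05. All points but H1f6 lie left of 0, and the widest bars belong to genes of few counts.

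Lower values in germ-free mice ran along all 4 gene blocks. The 14 genes of the first block of chromosome 13 (21715763 to 21832196) had a median log2 fold change of −1.11 with 5 called lower. The 5 of the second block (22035164 to 22043676) had −1.01 with 0 called and 4 at an unadjusted p under 0.05, and the 29 of the last (23531050 to 23764406) −0.87 with 8 called. The 6 genes on chromosome 3 (96219865 to 96270132) had −0.72 with 2 called. Blocks are runs of genes less than 100000 bases apart. Summed over the first block, germ-free libraries had 246, 219, 160.0 and 116 CPM, against 442, 391, 492 and 344 CPM in SPF libraries, or 44.4% of the SPF mean. For the second block, the last block and chromosome 3 the share was 49.6%, 54.9% and 61.5%. The chromosome 3 sums were 135, 103, 94.8 and 97.3 CPM in germ-free and 201, 162, 202 and 134.9 CPM in SPF libraries, so there germ-free 1 overlapped SPF 5. Differences between blocks were not tested. Of the 24 genes that averaged at least 20 CPM 12 were called, with a median of −0.84, and of the 32 below 20 CPM 5, with a median of −0.91; of the 11 below 5 CPM 0 were called.

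**Figure D3:**
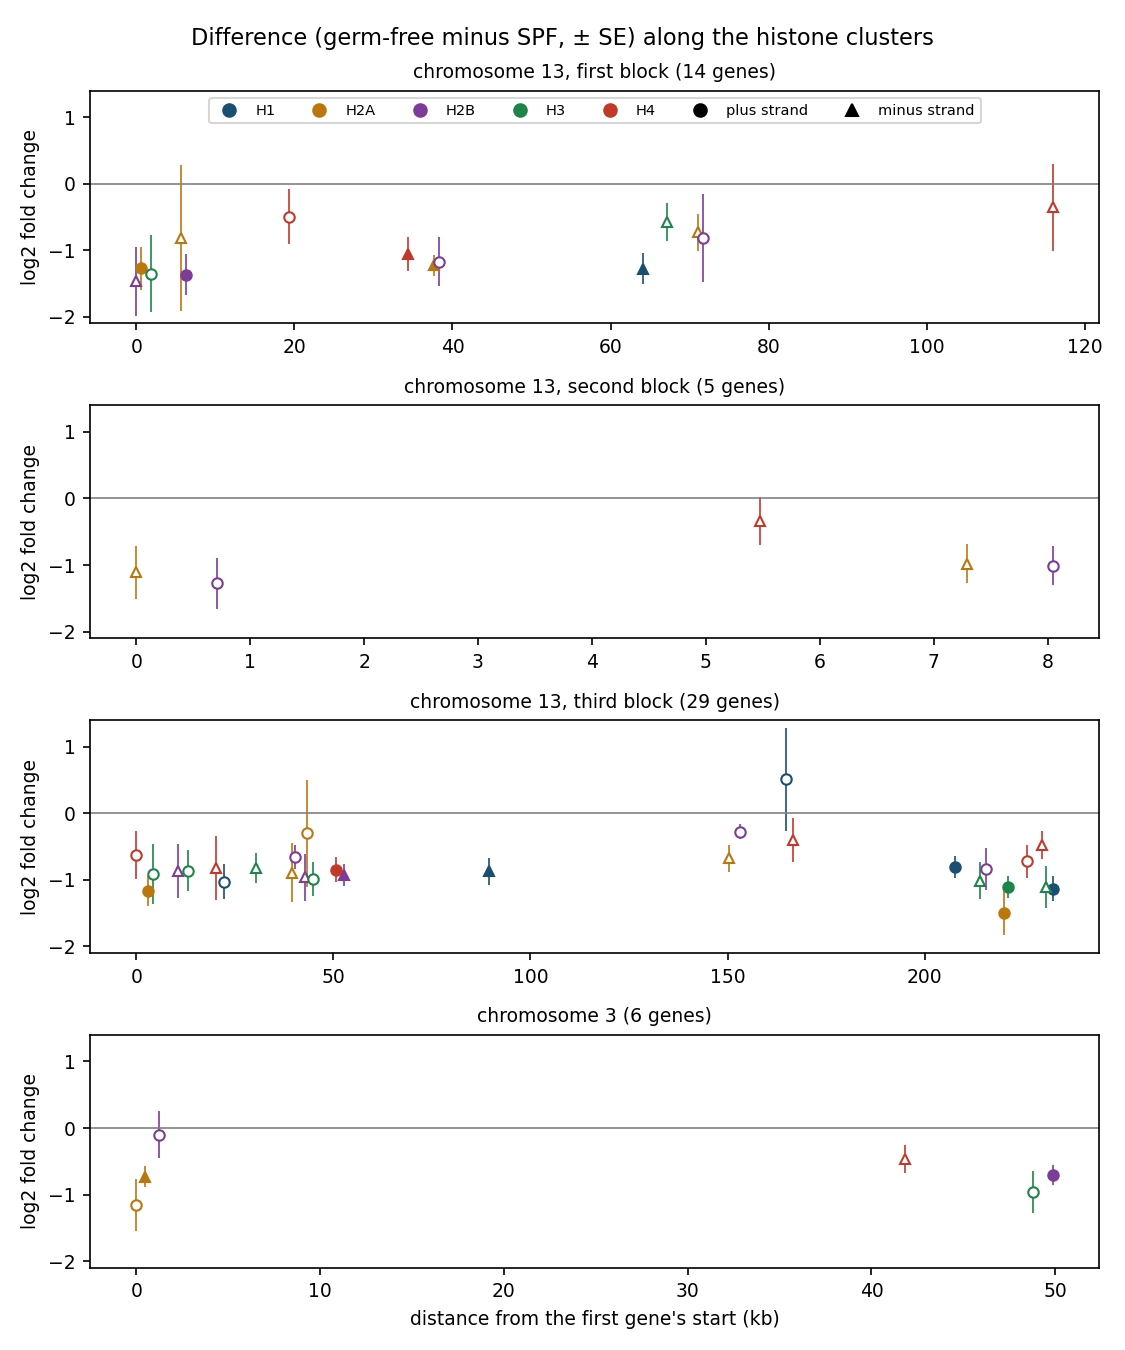
Log2 fold change (germ-free minus SPF, bars ± SE) of the clustered genes against the distance (kb) of each gene's start from the first gene of its block; colours mark the class, circles the plus and triangles the minus strand, and filled symbols an adjusted p under 0.05. Points lie below 0 along the 4 blocks except for H1f6 in the last block of chromosome 13.

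Many histone genes stand head to head and share the stretch between their starts. There were 11 such pairs within 1000 bases, 10 of an H2A with an H2B gene and 1 of H2bc9 with H3c7, with gaps of 175 to 659 bases. Both partners had a log2 fold change below 0 in all 11. H1f6, the only gene above 0, is in no pair, so no pairing of these genes could have come out otherwise. The partners differed by a median of 0.20 on the log2 scale, and genes outside such pairs were not compared. The most even pair was H2bc9 (−0.87 ± 0.40) and H3c7 (−0.87 ± 0.31), whose SEs far exceed the difference between them. H2ac15 (−1.23) and H2bc15 (−1.17), 295 bases apart, were also close. The least even pairs were H2bc7 (−0.96) with H2ac7 (−0.30) and H2ac20 (−0.73) with H2bc21 (−0.10), in both of which 1 partner had a mean under 5 CPM. Partners share libraries, so this is a description.

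Many of these genes share stretches of sequence with other copies, and the sources used here do not give how reads that match several copies were counted. As a rough measure of this, each gene's exons were cut into words of 50 bases and compared with all GENCODE M21 transcripts on both strands. A word held by another annotated gene at the same locus also counted as shared, so the measure mixes overlap with likeness between copies. The share of words found in no other gene had a median of 50.6% and ran from 0% to 100%. The genes at 0%, H2bc18 and H3c13, are both overlapped by other annotated genes. The 12 genes under 20% had a median log2 fold change of −1.04 (3 called), the 30 between 20 and 80% −0.88 (7 called) and the 14 over 80% −0.83 (7 called). Spearman's rho between the share and the log2 fold change was 0.28 across the 56 genes, which share libraries and sequence. In 4 genes all words are unique (100%): H1f1 and H1f5 were called, and H1f6 (0.51, adjusted p = 0.769) and H2bc21 (−0.10, adjusted p = 0.913) were not. On the opposite strand, long noncoding genes overlap H4c2, H2ac21, H3c13 and H2bc18, and the sources used here do not give the strand setting of the counts.

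**Figure D4:**
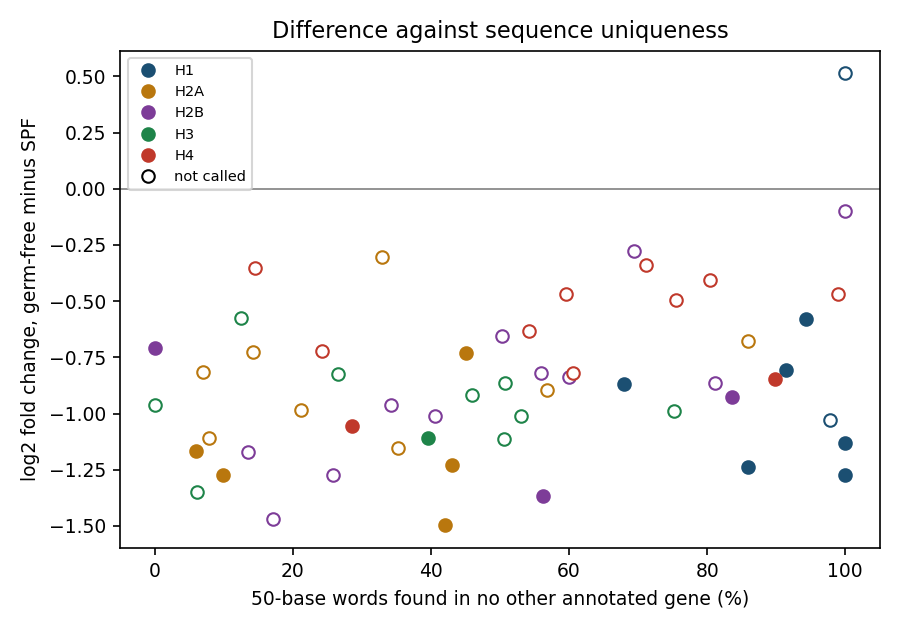
Log2 fold change (germ-free minus SPF) of each of the 56 genes against the share (%) of its 50-base words found in no other annotated gene; colours mark the class and filled points an adjusted p under 0.05. Genes from 0 to 100% lie below 0, with H1f6 above it, and called genes occur along the whole axis.

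The genes around histone supply were examined by lists, with members of the 56 left out, and the share called over all genes (2.33% lower, 1.85% higher) is the background for each. Of 9 variant histone genes 2 fell, none rose, and the median was −0.24. H2ax, which encodes H2A.X, the variant phosphorylated at DNA breaks, had 42.2, 43.8, 33.3 and 33.9 CPM in germ-free libraries, against 67.2, 66.2, 82.7 and 56.0 CPM in SPF libraries (−0.83 ± 0.14, adjusted p = 0.00512 by edgeR). H2az1, a gene of the promoter variant H2A.Z, averaged 90.4 ± 3.65 CPM in germ-free and 122 ± 17.5 CPM in SPF libraries (−0.44 ± 0.10, adjusted p = 0.0279); its call was lost without germ-free 1, germ-free 2, germ-free 3, germ-free 4, SPF 3, SPF 4 or SPF 5 (adjusted p 0.0529 to 0.0913). H3f3a and H3f3b, the genes of the replication-independent H3.3, had log2 fold changes of 0.21 and −0.24 and did not pass. H2ax kept its call with any library left out. The H3.3 genes, whose mRNA carries a poly(A) tail, had values on either side of 0, at adjusted p-values of 0.265 and 0.301 by edgeR. By contrast, H1f0 and H1f10, also from polyadenylated mRNA, were called lower. The largest difference on this list was that of Cenpa, which did not pass although its groups did not overlap (−1.04 ± 0.38, adjusted p = 0.196 by edgeR).

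Of 21 genes of 3′ processing and decay of histone mRNA 1 fell and 0 rose (median −0.05). Slbp, the gene of the stem-loop-binding protein, had 40.7, 42.6, 52.1 and 51.9 CPM in germ-free libraries, against 29.1, 35.4, 38.6 and 34.3 CPM in SPF libraries: the groups did not overlap and germ-free libraries were higher, but it did not pass (0.44 ± 0.13, adjusted p = 0.063 by edgeR). The 1 that fell was Snrpf, of the Sm ring of spliceosomal and U7 particles (−0.44 ± 0.09, adjusted p = 0.0142); without SPF 4 (adjusted p 0.0513) it did not pass. Of 15 genes of the histone locus body and of histone transcription 1 fell and 0 rose (median 0.20). That was Ccna2, the gene of cyclin A, which averaged 48.2 ± 15.6 CPM in germ-free and 103 ± 13.9 CPM in SPF libraries (−1.09 ± 0.21, adjusted p = 0.0252); the call was lost without germ-free 2, germ-free 4, SPF 3, SPF 4 or SPF 5 (adjusted p 0.0506 to 0.0715). Npat, the cyclin E-CDK2 target that activates histone genes, had a log2 fold change of 0.45 ± 0.16, adjusted p = 0.121, and E2f1, an S phase transcription factor, 1.10 ± 0.34, adjusted p = 0.0823, so neither passed by edgeR. Of 23 histone chaperone genes 2 fell and 0 rose (median −0.03). Asf1b, the chaperone form of dividing cells, averaged 4.97 ± 1.14 CPM in germ-free and 11.7 ± 2.77 CPM in SPF libraries (−1.23 ± 0.26, adjusted p = 0.018), and Anp32e, which removes H2A.Z, 88.3 ± 4.48 CPM in germ-free and 117 ± 15.02 CPM in SPF libraries (−0.41 ± 0.10, adjusted p = 0.0323). The Asf1b call was lost without germ-free 4, SPF 3, SPF 4 or SPF 5 (adjusted p 0.0541 to 0.0665) and the Anp32e call without germ-free 2, germ-free 3, germ-free 4, SPF 3, SPF 4 or SPF 5 (adjusted p 0.0665 to 0.115).

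S phase genes had values on both sides of 0. Of 43 (Slbp among them), 3 fell and 4 rose, with a median of 0.06, and they summed to 1575 ± 167 CPM in germ-free and 1463 ± 206 CPM in SPF libraries. Those that rose were the helicase genes Mcm2 (0.85) and Mcm6 (0.79), the licensing gene Cdt1 (0.84) and Ung, a uracil glycosylase gene (1.502). Those that fell were Clspn, a checkpoint adaptor at forks (−1.04), Rrm1, of ribonucleotide reductase (−0.48), and Rfc5, of the clamp loader (−0.50). Mcm6 had 101, 112, 138 and 112 CPM in germ-free libraries, against 46.9, 66.9, 77.4 and 76.5 CPM in SPF libraries, with no overlap (0.79 ± 0.15, adjusted p = 0.0157 by edgeR), and lost its call without SPF 3 (adjusted p 0.0568). Clspn had 24.4, 24.1, 26.2 and 23.5 CPM in germ-free libraries, against 37.6, 63.5, 48.4 and 52.1 CPM in SPF libraries, with no overlap the other way (−1.04 ± 0.14, adjusted p = 0.00186 by edgeR), and kept its call with any library left out. The number called higher was 1 without germ-free 3, germ-free 4 or SPF 3 and 2 without SPF 4, and the number called lower was 5 without SPF 1 and 1 without germ-free 4, SPF 3, SPF 4 or SPF 5.

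Genes of G2 and M phase were lower, as the histone genes were. Of 30, 18 fell and 0 rose, all 30 had an unadjusted p under 0.05, and the median was −1.11. They summed to 3541, 3059, 1840 and 1876 CPM in germ-free libraries, against 4851, 6106, 5531 and 5105 CPM in SPF libraries. In both the histone and the G2 and M sums, germ-free 3 and 4 were the lowest libraries and the groups did not overlap. Kif11, the gene of the spindle motor Eg5, had 74.3, 72.5, 49.3 and 50.5 CPM in germ-free libraries, against 125, 171, 153 and 129.9 CPM in SPF libraries (−1.23 ± 0.16, adjusted p = 0.00247 by edgeR), and Tpx2, a spindle assembly factor, 93.0, 75.9, 54.3 and 57.3 CPM in germ-free libraries, against 135, 185, 177 and 155 CPM in SPF libraries (−1.22 ± 0.18, adjusted p = 0.00666 by edgeR). The 18 also included Mki67, Top2a, Ccnb2, Cdk1, Bub1, Bub1b, Aurka, Aurkb, Birc5, Cdc20, Ttk, Nusap1, Hmmr, Cdca3, Prc1 and Tacc3. The count was 13 without germ-free 3, 12 without germ-free 4, 29 without germ-free 1 and 2 with the fibroblast marker term. It was 14 without SPF 1, 6 without SPF 3 or SPF 4 and 9 without SPF 5. The share of all genes called lower in these fits is given above with the histone genes, and was 1.15% without SPF 5.

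Since most histone mRNAs have no poly(A) tail, other RNAs without one were set beside them. Of 20 listed, 7 had a row in the deposited gene table. Of these 6 had a log2 fold change above 0, with a median of 0.37 and 0 called (1 at an unadjusted p under 0.05 by edgeR). Their sum, most of it Malat1, was 20461 ± 1573 CPM in germ-free and 15706 ± 2238 CPM in SPF libraries. Malat1, a nuclear RNA with a processed 3′ end, averaged 13004 ± 2537 CPM in germ-free and 10054 ± 1034 CPM in SPF libraries (0.37 ± 0.13, adjusted p = 0.137 by edgeR), and Rny3, a Y RNA, 29.3 ± 13.5 CPM in germ-free and 20.3 ± 5.98 CPM in SPF libraries (0.54 ± 0.36, adjusted p = 0.47).

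**Figure D5:**
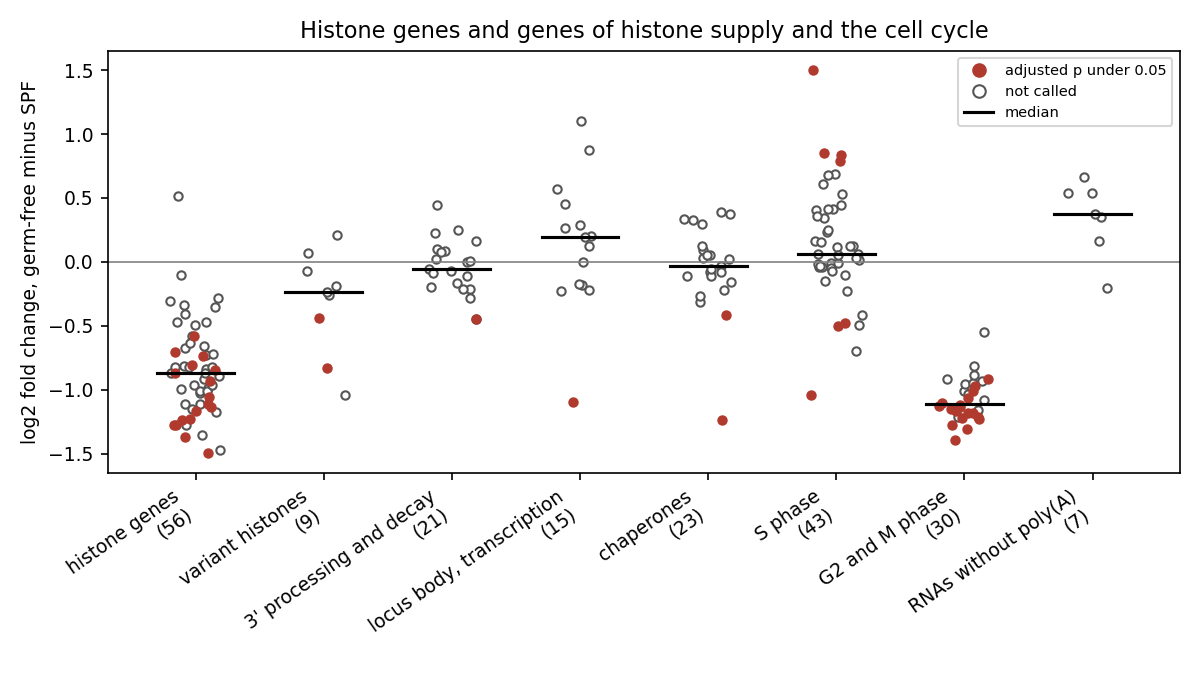
Log2 fold change (germ-free minus SPF) of each gene in 8 lists, with the number of genes under each name; filled points have an adjusted p under 0.05, the line is the list's median, and points are spread sideways only to be seen. The histone genes (median −0.87) and the G2 and M genes (−1.11) lie below 0, while the S phase genes (0.06) spread to both sides.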

How the data were processed

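Raw counts per gene, deposited by the authors, were the starting point: 22911 genes in 8 libraries, 1 column each. The submitters' processing notes list TopHat2 2.1.1, GRCm38, HTSeq 0.6.0, cutadapt 1.18 and DESeq2 1.22.2, with no roles or settings. The authors' deposited normalized values (a signal, counts over a DESeq2 size factor per library) and score (the Wald statistic) were not used. Their deposited log2 fold changes (SPF over germ-free) and p-values served only for the count credited to their table.

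Counts were fitted with edgeR 4.0.16 in R 4.3.3: filterByExpr (minimum count 10, minimum total 15), TMM factors, glmQLFit (robust) and glmQLFTest, 2-sided, prior count 0.125, with Benjamini-Hochberg adjustment over 15098 genes. The SE was taken from the F statistic. CPM is counts over the TMM-scaled library size, and CPM per kb divides it by the exonic length in GENCODE M21, whose starts and ends matched the table for all 56 genes. The procedure was tested on simulated data. Alternatives used DESeq2 1.42.0, limma 3.58.1 (voom), other factors and filters, the replicate number as a block, and fits that left out 1 library each; the fibroblast marker term was chosen after seeing the data.

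The histone genes and the lists were chosen with earlier results of these data known. Named with values are the called genes, the 3 highest per kilobase of each class and, of other lists, the called genes and the 2 with the smallest p; further names were picked after their values were seen.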

Additional observations from a re-analysis of the deposited data

Results flagged for a closer look

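In 70 groups of 4 libraries (each group for the 22 histone genes named by rule and for the summed levels) a value was looked for that stood far from the other 3, and 2 were found; chance gives about 1 in 20. H1f10 had 8.55 CPM in SPF 1, while SPF 3, 4 and 5 had 18.3, 17.03 and 17.9 CPM; the call of H1f10 held without SPF 1. H2ac20 had 72.7 CPM in germ-free 1, while germ-free 2, 3 and 4 had 46.3, 49.6 and 50.2 CPM; the call of H2ac20 held without germ-free 1.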

How the results depend on the processing

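No alternative reversed the direction of a named histone gene: of 352 values of 22 genes 249 kept their side of the threshold, 91 lost it and 12 gained it. By edgeR 17 histone genes were lower; DESeq2's Wald test gave 33 and limma voom 35, and each included the 17. Over all genes edgeR called 352 lower and 279 higher, DESeq2 695 and 657, and voom 568 and 455. Over the other lists together edgeR called 27 lower and 4 higher, DESeq2 43 and 9, and voom 45 and 8. With the fibroblast marker term the counts were 1 histone gene lower, 39 lower and 51 higher of all genes, and 3 lower and 0 higher of the lists. The labels do not state whether the sample numbers pair the mice. Deviations of libraries that share number 1, 3 or 4 correlated at 0.19, −0.08 and −0.07, which is too few values to settle it. With the number as a replicate block, a library whose number is not shared stands alone in its block. Such a library adds nothing to the group difference, so that fit rests on the libraries that share number 1, 3 or 4. The block fit called 12 histone genes lower (10 of the 17), with 161 lower and 172 higher of all genes. In the lists 5 were lower and 6 higher, and the G2 and M genes called lower numbered 3, against 18. These counts are therefore not those of a fit with all libraries, and how much of the drop this accounts for was not tested. Other factors and filters gave 15 to 18 histone genes. Leaving out 1 library gave 4 to 25 histone genes lower, 152 to 402 genes lower and 128 to 286 higher over all genes, 8 to 37 lower and 1 to 5 higher in the lists, and a log2 ratio of summed histone RNA of −1.01 to −0.72. Of the 11 histone genes under 5 CPM 0 were called, with a median SE of 0.58; the part of depth in this was not tested.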
